A study of Mus musculus with 12 samples.

Results

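Malat1, Neat1, Meg3, H19, Kcnq1ot1, Gas5, Dnm3os and Miat are long noncoding RNAs (RNAs that are transcribed from their own genes and do not encode a protein) that have been studied in the heart or in cell stress. The 8 genes were taken by name from the 56350 gene IDs of the table, and 7 of them were among the 13916 genes with enough reads to test. The samples were pieces of the apex of the mouse left ventricle, taken 8 weeks after transverse aortic constriction (TAC), which narrows the aortic arch and loads the left ventricle with pressure, or after a sham operation. The 12 libraries form 4 groups of 3 by genotype and surgery. In both control groups, sham and TAC, the mice were littermates heterozygous for lincRNA-p21 (gene symbol Trp53cor1), a p53-induced long noncoding RNA, so the controls also carry an altered allele. In both knockout groups, sham and TAC, the mice were global lincRNA-p21 knockouts. Age, sex and strain, the part of the gene that was altered, and whether each library came from one animal go unstated in the labels used here, and p-values then reflect only how far these libraries differ, which may be technical. In whole tissue, fewer cells of a type and less RNA per cell cannot be told apart.

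Most of these RNAs act in the nucleus. Malat1 accumulates in nuclear speckles, the sites rich in splicing factors, and Neat1 is the scaffold of paraspeckles, bodies that form around its long isoform and grow in stressed cells. Kcnq1ot1, H19 and Meg3 are imprinted, which means that only the copy from one parent is expressed; Kcnq1ot1 is transcribed from the paternal chromosome and silences neighbouring genes in cis, while H19 and Meg3 are expressed from the maternal chromosome and are abundant in the fetus. Gas5 hosts small nucleolar RNAs in its introns and accumulates when growth is arrested, Dnm3os is the precursor of a pair of microRNA genes, and Miat was first linked to myocardial infarction.

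Malat1 and Neat1 lie side by side, and their 3′ ends are shown because this is what sets them apart from ordinary polyadenylated transcripts. Malat1 and the long isoform of Neat1 are cut by RNase P and are known to end in a triple helix, in which U-rich stretches wrap an A-rich end, in place of a poly(A) tail. The windows below were read from the GENCODE M21 transcripts (GRCm38, minus strand), 5′ to 3′ in DNA letters, and capitals mark runs of 8 or more bases that occur in both.
Malat1, 122 bases at chr19:5795970-5796091: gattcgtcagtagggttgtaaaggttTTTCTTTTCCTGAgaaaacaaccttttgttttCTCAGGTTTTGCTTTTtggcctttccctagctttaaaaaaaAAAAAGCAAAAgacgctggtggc
Neat1, 117 bases at chr19:5824708-5824824: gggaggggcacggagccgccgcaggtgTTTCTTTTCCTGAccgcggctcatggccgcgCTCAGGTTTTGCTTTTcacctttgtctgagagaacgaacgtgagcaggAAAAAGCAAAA
The longest shared run, of 16 bases, occurred in 2 of the 141767 annotated transcripts, one of each gene. In Neat1 the window reaches the last annotated base, and in Malat1 the annotation goes on for 280 bases past it. The libraries were made from poly(A)-enriched RNA, and which ends of these RNAs they captured was not tested. The longest unbroken run of A was 12 bases in Malat1, 7 in Neat1 and 41 in Kcnq1ot1, against a median of 6 over the tested genes, of which 11.4% had a run of at least 12.

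The promoters of Malat1 and Kcnq1ot1, the pair whose levels moved together below, are shown next. They are RefSeq sequences (GRCm38.p6) from 250 bases before to 50 bases after the annotated start, on the minus strand. Capitals mark matches, on either strand, to the TATA box motif TATAAA, to the CCAAT box, to the GC box motif GGGCGG and to the AP-1 motif TGANTCA.
Malat1, chr19:5802623-5802922: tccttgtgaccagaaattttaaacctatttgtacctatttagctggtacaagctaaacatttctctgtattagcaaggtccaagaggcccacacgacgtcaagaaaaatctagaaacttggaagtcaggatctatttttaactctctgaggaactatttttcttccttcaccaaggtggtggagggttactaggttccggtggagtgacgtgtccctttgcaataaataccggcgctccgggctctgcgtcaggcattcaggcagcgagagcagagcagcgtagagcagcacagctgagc
Kcnq1ot1, chr7:143296498-143296797: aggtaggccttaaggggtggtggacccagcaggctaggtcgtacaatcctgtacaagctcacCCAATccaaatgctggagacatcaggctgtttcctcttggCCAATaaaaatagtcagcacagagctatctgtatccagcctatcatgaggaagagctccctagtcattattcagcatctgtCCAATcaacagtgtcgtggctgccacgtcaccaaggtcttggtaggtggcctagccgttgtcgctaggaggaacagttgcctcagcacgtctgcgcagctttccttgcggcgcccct
Kcnq1ot1 held 3 CCAAT boxes, starting 188, 148 and 67 bases before the start, all on the strand of the gene. Of 32851 promoters of the same length, 37.4% held at least 1 CCAAT box and 3.37% held 3 or more. None of the 4 motifs was found in the Malat1 window, where 13.6% of all promoters held a TATA box, 35.7% a GC box and 7.81% an AP-1 site. Of the 8 genes, 6 had a promoter in the table; Neat1 and H19 had none.

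Levels are given as normalised read counts, that is, the reads of a gene over the size factor of its library, with means ± SD (n = 3). A change is the difference between group means of log2(value + 1), given ± SE; on that scale low genes appear to change less than they do. Changes were tested with limma-trend across all 13916 genes and adjusted by the Benjamini-Hochberg method within each comparison; a gene was called at an adjusted p under 0.05. Per kilobase of annotated exons, averaged over the 12 libraries, Malat1 was the most abundant of the 8 at 2538, followed by Neat1 at 598, Gas5 at 138, H19 at 86.4, Dnm3os at 5.29, Kcnq1ot1 at 1.11, Meg3 at 0.585 and Miat at 0.149. The libraries of neighbours in this order overlapped for Malat1 and Neat1 (lowest Malat1 1059, highest Neat1 1069), for Gas5 and H19, and for Kcnq1ot1 and Meg3. Neat1 against Gas5, H19 against Dnm3os, Dnm3os against Kcnq1ot1 and Meg3 against Miat did not overlap. These levels depend on the annotated length, which for Neat1 and Kcnq1ot1 counts the longest isoform in full.

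Libraries held from 10323605 to 13238934 reads. Trp53cor1, the targeted gene, had 11 reads in the 6 control libraries, of which 4 had a read, and 0 reads in the 6 knockout libraries, which allows up to 0.0413 CPM (reads scaled to library size) against 0.158 CPM in controls (3 counts over the group, counting error only). Cardiomyocyte markers identified the tissue: all 10 were detected, with summed values of 798218 to 888293 in control TAC and 980763 to 1167590 in the other libraries. Control sham replicate 3 stood apart on the second principal component and had the lowest share of mitochondrial reads (12.5%, against 14.7% to 19.99% in the others). The share was highest in knockout TAC, at 19.1% to 19.99%, against 15.5% to 17.1% in control TAC. Its part in the differences between these groups was not tested. Changes after TAC in controls were larger for longer transcripts (Spearman rho 0.409 over 13916 genes) and smaller for those with more GC (rho −0.437). Between genotypes after TAC rho was −0.473 with length and 0.164 with GC. For the difference of TAC effects it was −0.451 and 0.265. All are descriptions over genes, which are not independent replicates.

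**Figure D1:**
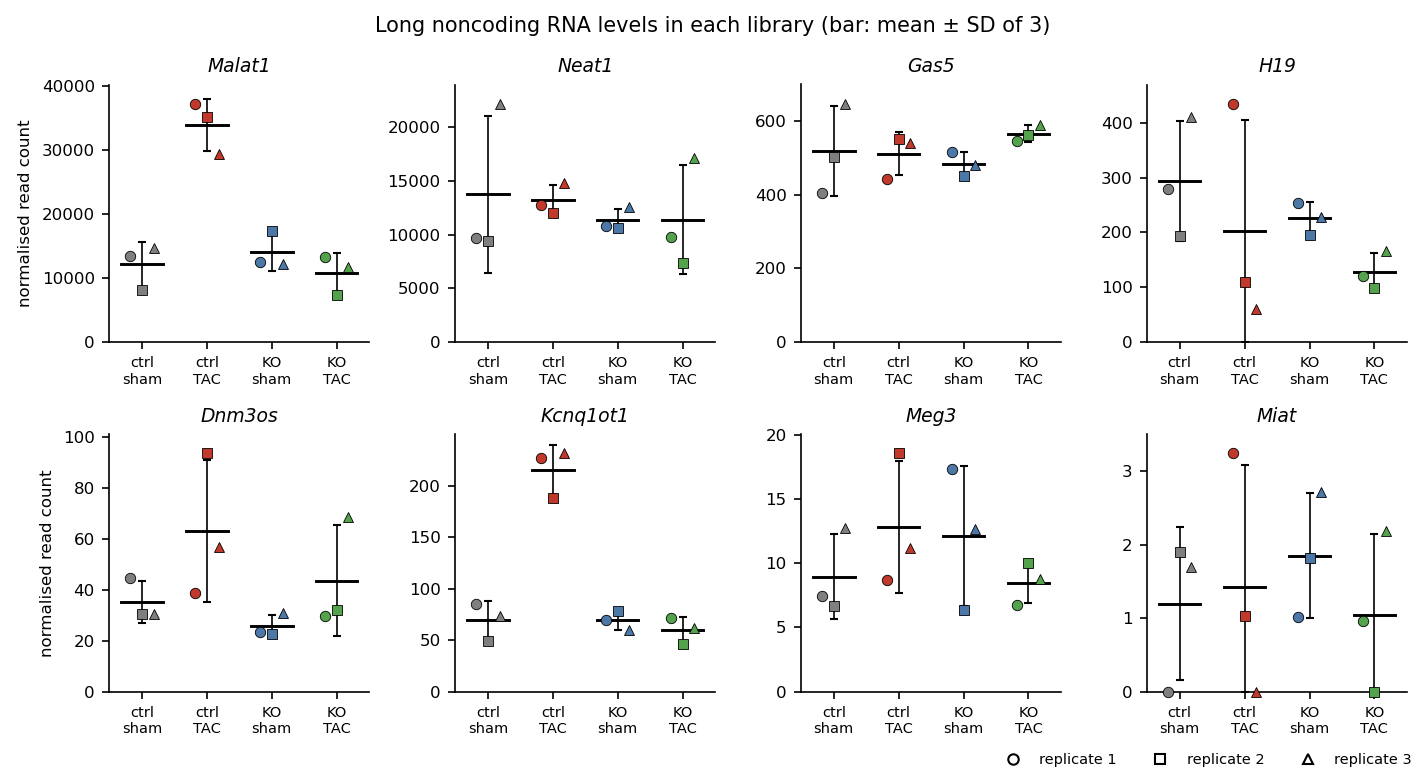
Normalised read count (y axis, from 0) of each of the 8 long noncoding RNAs in each library of control (ctrl) and knockout (KO) mice after sham or TAC; marker shapes are replicates 1 to 3, lines are group means and bars SD, drawn down to 0 at most. The 3 control TAC libraries lie above all 9 others for Malat1 (29453 to 37317) and Kcnq1ot1 (187 to 231), while the groups overlap for Neat1 and Meg3.

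After TAC in controls, Malat1 and Kcnq1ot1 were the 2 of 7 tested RNAs that changed, and both rose. Of all tested genes, 21.6% were called in this comparison, 11.0% as higher. Malat1 (ENSMUSG00000092341.3, a lincRNA at chr19:5795690-5802672) was at 13501, 8171 and 14663 in control sham, 37317, 35148 and 29453 in control TAC, 12445, 17414 and 12161 in knockout sham, and 13238, 7397 and 11756 in knockout TAC. All 3 control TAC libraries were above the other 9, whose groups overlapped one another. Malat1 averaged 12112 ± 3462 in control sham and 33973 ± 4062 in control TAC, which is a change of 1.53 ± 0.24 (limma-trend, adjusted p = 0.00093), or 2.88-fold. Malat1 took 0.0689% to 0.141% of all reads in control sham and 0.262% to 0.334% in control TAC. Its change ranked 176 by p among the tested genes.

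Kcnq1ot1 (ENSMUSG00000101609.2, an antisense RNA at chr7:143203458-143296549) was at 85.2, 49.4 and 73.8 in control sham, 227, 187 and 231 in control TAC, 69.2, 78.5 and 59.7 in knockout sham, and 71.5, 46.6 and 62.2 in knockout TAC. As for Malat1, the control TAC libraries did not overlap any other group, and the other 3 groups overlapped. Among all tested genes, 17.7% had control TAC libraries wholly above control sham. Kcnq1ot1 averaged 69.5 ± 18.3 in control sham and 215 ± 24.2 in control TAC, which is a change of 1.65 ± 0.23 (limma-trend, adjusted p = 0.00033), or 3.13-fold. These values rest on 219 reads in the 3 control sham libraries and 640 in the 3 control TAC libraries.

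Both calls held in each of the 13 other settings that were run and in each of the 12 fits that left out one library. Without the trend over length and GC content, the changes were 1.09 for Malat1 (adjusted p = 0.014) and 0.96 for Kcnq1ot1 (adjusted p = 0.0086), smaller than before. The removal is a partial one for Kcnq1ot1, since only 2 tested genes have a longer transcript than its 93092 bases and lengths were capped at the 99th percentile. Of 1190 genes with a longest transcript of 6 to 8 kb, as Malat1 has, 319 were called higher and 26 lower, with a median change of 0.32 and a 95th percentile of 1.05. Of 791 genes over 8 kb, 346 were called higher and 7 lower, with a median of 0.49 and a 95th percentile of 1.31. Malat1 lay above the 95th percentile of the genes of 6 to 8 kb, and Kcnq1ot1 above that of the genes over 8 kb. Neat1, with 20771 bases in its long isoform, had a change of 0.06 ± 0.33 that was not called (limma-trend, adjusted p = 0.92). Without control sham replicate 3 that change was 0.46, also not called. Short and long isoforms of Neat1 were counted together, so the length of the RNA that gave the reads is not known. The length classes were not matched for GC content. Of the tested genes, 13.8% had a lower GC content than Malat1, 6.88% than Kcnq1ot1 and 36.8% than Neat1. The part of length and GC content in the rise of Malat1 and Kcnq1ot1 was not tested beyond the removal of the trend.

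**Figure D2:**
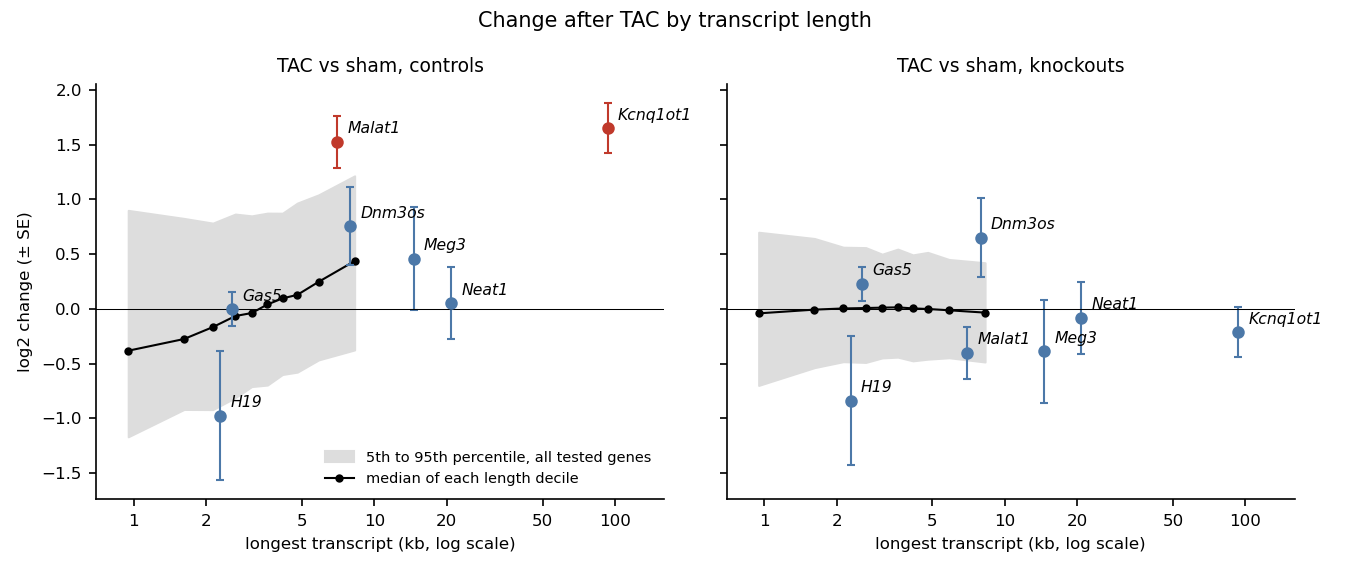
Log2 change after TAC (y axis) against the longest annotated transcript (x axis, kb, log scale) in controls (left) and knockouts (right). Black points are medians of 10 length classes of all tested genes, and grey is their 5th to 95th percentile. Coloured points are the 7 tested RNAs ± SE, red where the limma-trend adjusted p was under 0.05. The medians run from −0.38 to 0.44 in controls, with Malat1 at 1.53 above the band. Kcnq1ot1, at 1.65, lies to the right of the band, which ends at a median length of 8280 bases.

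After TAC in knockouts, neither RNA was called. In the TAC comparison of knockouts 0.00719% of all genes were called, and of the 7 tested RNAs 0 were called by limma-trend, with 0 at an unadjusted p under 0.05; edgeR, DESeq2 and voom also called 0. Malat1 went from 14007 ± 2954 in knockout sham to 10797 ± 3036 in knockout TAC (−0.40 ± 0.24, limma-trend adjusted p = 0.79). Kcnq1ot1 went from 69.1 ± 9.38 to 60.1 ± 12.6 (−0.21 ± 0.23, limma-trend adjusted p = 0.90).

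Knockout TAC hearts had less of both RNAs than control TAC hearts. Of all tested genes, 8.23% were called between the genotypes after TAC, 4.10% as higher and 4.13% as lower in knockouts, and the 2 of 7 tested RNAs called were again Malat1 and Kcnq1ot1. Malat1 was lower by a log2 change of −1.69 ± 0.24 (limma-trend, adjusted p = 0.0014), so that controls held 3.23-fold more. Kcnq1ot1 was lower by −1.84 ± 0.23 (limma-trend, adjusted p = 0.00044), with 3.58-fold more in controls. Knockout libraries lay wholly below control libraries after TAC for both, as was so for 15.5% of all tested genes. Of 1190 genes of 6 to 8 kb, 135 were called lower in knockouts and 5 higher. Of 791 genes over 8 kb, 209 were called lower and 2 higher. With the trend over length and GC content removed, limma-trend gave −1.42 for Malat1 (adjusted p = 0.0094) and −1.35 for Kcnq1ot1 (adjusted p = 0.0034). For Kcnq1ot1 this removal is again a partial one, since lengths were capped. These comparisons share the control TAC libraries with the TAC comparison of controls, so a high level in those 3 libraries enters both. Among the other 5 tested RNAs the difference between genotypes after TAC ran from −0.54 ± 0.36 for Dnm3os (limma-trend, adjusted p = 0.37) to 0.15 ± 0.16 for Gas5, with −0.30 ± 0.33 for Neat1 and −0.19 ± 0.59 for H19, and 0 of these 5 were called by limma-trend.

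The TAC effects themselves differed between genotypes for both RNAs, a difference called for 0.309% of all tested genes and, as lower in knockouts, for 0.295%. The difference was −1.92 ± 0.34 for Malat1 (limma-trend, adjusted p = 0.026) and −1.86 ± 0.32 for Kcnq1ot1 (limma-trend, adjusted p = 0.021). These 2 calls were lost in some fits. With the length and GC trend removed, Malat1 was at −1.57 (adjusted p = 0.12) and Kcnq1ot1 at −1.25 (adjusted p = 0.125), and neither was called. Without the filter on low values, which raised the number of genes tested, Malat1 had an adjusted p of 0.084. The Malat1 call was also lost, with adjusted p from 0.0574 to 0.0985, on leaving out control TAC replicate 1 or 2, knockout sham replicate 2 or 3, or control sham replicate 3. The Kcnq1ot1 call was lost, with adjusted p from 0.0594 to 0.0985, on leaving out control TAC replicate 1 or 2, or replicate 2 of either knockout group. The direction was the same in all of these fits.

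After sham surgery no difference between the genotypes was called: 0 of 13916 genes passed by limma-trend (0% of all tested), with 604 at an unadjusted p under 0.05, while edgeR and voom called 0 and DESeq2 called 1. Of the 7 tested RNAs 0 were called by limma-trend, edgeR, DESeq2 and voom, and 0 had an unadjusted limma-trend p under 0.05. The libraries of both genotypes overlapped for all 7, while 4.94% of all tested genes had knockouts wholly above controls and 4.68% wholly below. The differences between knockout and control sham were 0.23 ± 0.24 for Malat1 and 0.02 ± 0.23 for Kcnq1ot1.

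**Figure D3:**
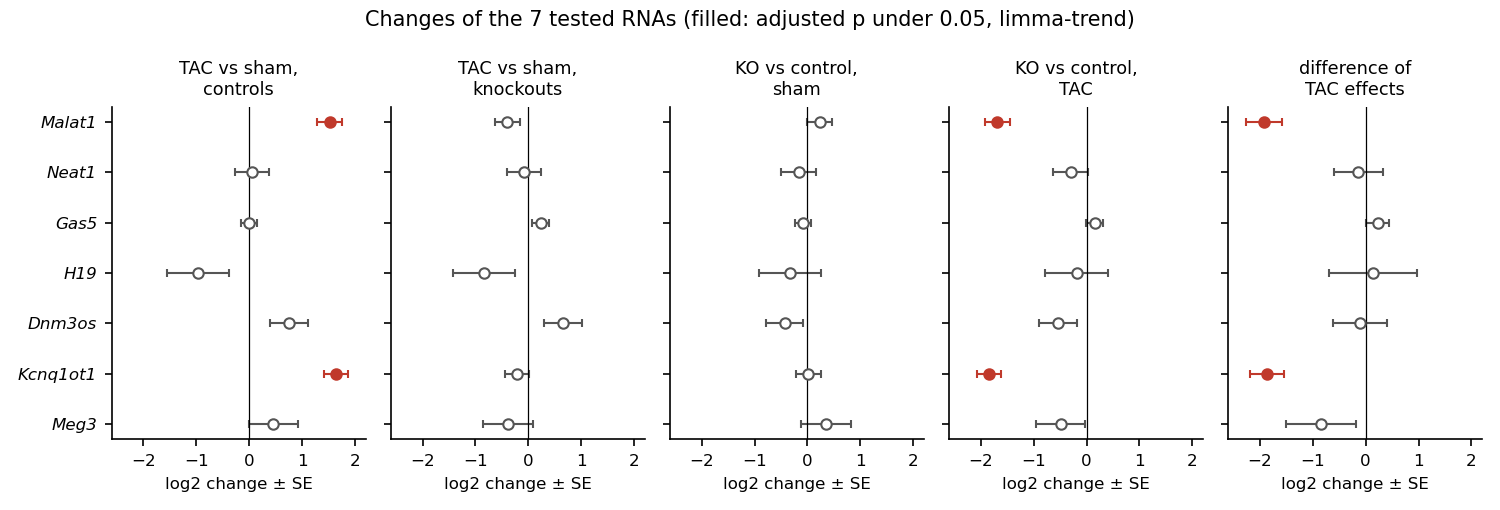
Log2 change ± SE (x axis) of the 7 tested RNAs (rows) in the 5 comparisons (panels), filled where the limma-trend adjusted p was under 0.05. Malat1 and Kcnq1ot1 are filled in TAC against sham in controls, in knockout (KO) against control after TAC and in the difference of TAC effects, from −1.92 to 1.65, and no other RNA is filled in any panel.

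Malat1 and Kcnq1ot1, on chromosomes 19 and 7, also tracked one another library by library. Over the 12 libraries Malat1 spanned 5.05-fold and Kcnq1ot1 4.96-fold, while their ratio within a library ranged from 127 to 222, a span of 1.74-fold. Among 8569 genes with known symbols and a mean of at least 100, Kcnq1ot1 was the closest to Malat1 by Pearson's r of log2(value + 1), with r = 0.967 over 12 libraries. The points share libraries and the groups, and control TAC forms a separate cluster. For deviations from the group means r was 0.840. The trends over length and GC content were not removed from these values, and they differed between libraries. Over genes, the deviation of a library from the gene mean had a Spearman rho of −0.343 to 0.409 with length and −0.347 to 0.477 with GC. The part of these trends in the likeness of the 2 RNAs was not tested. Next to Malat1 came Syne1, which encodes the nuclear envelope protein nesprin-1 (r = 0.955). Syne1 rose by 1.10 ± 0.20 after TAC in controls (limma-trend, adjusted p = 0.0020). Next to Kcnq1ot1 came Pkd2, which encodes the calcium channel polycystin-2 (r = 0.946), and Zzef1 (r = 0.943). For deviations from the group means their r with Kcnq1ot1 was 0.458 for Pkd2 and 0.753 for Zzef1. Within the library, Malat1 over Neat1 was 1.995 to 2.92 in control TAC and 0.660 to 1.64 in the other libraries, a ratio that does not depend on how libraries are scaled.

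Kcnq1ot1 starts inside Kcnq1, a potassium channel gene on the opposite strand, and the strand setting of the counting is not given in the sources used here, so reads of the pair cannot be told apart with certainty. Kcnq1 itself was at 706, 552 and 482 in control sham and 499.6, 451 and 404 in control TAC (−0.35 ± 0.15, limma-trend adjusted p = 0.097), a change in the other direction from Kcnq1ot1 that was not called. Of the nearest tested genes outside Kcnq1, both fell after TAC in controls. Cdkn1c, which encodes the cell cycle inhibitor p57 and is a known target of silencing by Kcnq1ot1, was at 156, 190 and 283 in control sham and 72.5, 89.6 and 99.8 in control TAC, with no overlap. The Cdkn1c change was −1.22 ± 0.21 (limma-trend, adjusted p = 0.0014), and in knockouts it was −0.17 ± 0.21 (adjusted p = 0.92). The difference between these effects, 1.05 ± 0.30, was not called (adjusted p = 0.115). Tssc4 fell by 0.70 ± 0.17 in controls (limma-trend, adjusted p = 0.010), a call lost with the length and GC trend removed (−0.24, adjusted p = 0.31). Whether Kcnq1ot1 has any part in the levels of Cdkn1c and Tssc4 was not tested.

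Neat1 (ENSMUSG00000092274.3, a lincRNA at chr19:5824708-5845478) lies 22036 bases from Malat1 on the same strand and was not called in any comparison. Neat1 was at 9711, 9392 and 22214 in control sham, 12775, 12052 and 14762 in control TAC, 10812, 10653 and 12546 in knockout sham, and 9741, 7319 and 17128 in knockout TAC. The highest values were in control sham replicate 3, the library that stood apart, and in knockout TAC replicate 3. Without control sham replicate 3 the TAC change in controls was 0.46 ± 0.29 (limma-trend, adjusted p = 0.31) in place of 0.06 ± 0.33, and without knockout TAC replicate 3 the change in knockouts was −0.42 ± 0.30 (adjusted p = 0.65) in place of −0.08 ± 0.33. Short and long isoforms of Neat1 were counted as one gene. Vwa3a (r = 0.954), Pan2, a subunit of a deadenylase complex (r = 0.952), and the kinase Jak3 (r = 0.940) were most like Neat1 over the 12 libraries, which every gene shares. Frmd8, the nearest tested gene on the far side of Neat1 from Malat1, had a change of −0.44 ± 0.17 after TAC in controls that was not called (limma-trend, adjusted p = 0.079).

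H19 (ENSMUSG00000000031.16, a lincRNA at chr7:142575529-142578143) was lower after TAC in most libraries and its call turned on 1 library. It was at 279, 194 and 411 in control sham, 436, 109 and 60.6 in control TAC, 253, 195 and 229 in knockout sham, and 120, 98.7 and 166 in knockout TAC. In controls the groups overlapped through control TAC replicate 1, the highest of all 12 libraries, and in knockouts all TAC libraries were below all sham libraries, as was so for 8.87% of all tested genes. The changes were −0.97 ± 0.59 in controls (limma-trend, adjusted p = 0.27) and −0.84 ± 0.59 in knockouts (adjusted p = 0.84), neither of them called. Without control TAC replicate 1 the change in controls was −1.78 ± 0.31 (limma-trend, adjusted p = 0.0033), and the other 11 fits that left out a library did not call it. Igf2, the reciprocally imprinted growth factor gene and the nearest tested gene on one side of H19, was at most 29.5 in any library; like H19 it was highest in control TAC replicate 1 among the control TAC libraries (19.5 against 3.09 and 0.93). Its change in controls was −1.58 ± 0.79 (limma-trend, adjusted p = 0.17). The genes most like H19 were Vwf, the endothelial von Willebrand factor (r = 0.913), the receptor phosphatase gene Ptpru (r = 0.909) and Wiz (r = 0.883), over 12 libraries.

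Dnm3os (ENSMUSG00000078190.7, an antisense RNA at chr1:162217623-162225550) and Meg3 (ENSMUSG00000021268.17, a lincRNA at chr12:109541001-109571726) had fewer reads than the other tested RNAs, 503 and 129 in all. Dnm3os was at 44.7, 30.4 and 30.5 in control sham, 38.9, 93.7 and 56.9 in control TAC, 23.4, 22.8 and 30.8 in knockout sham, and 29.9, 32.2 and 68.7 in knockout TAC. Its TAC groups were wider than its sham groups and overlapped them in both genotypes. The changes were 0.76 ± 0.36 in controls (limma-trend, adjusted p = 0.14) and 0.65 ± 0.36 in knockouts (adjusted p = 0.75). Without knockout TAC replicate 3 the change in knockouts was 0.28 ± 0.35. Dnm3os overlaps Dnm3, the dynamin-3 gene on the opposite strand, whose reads cannot be told apart from it with certainty; Dnm3 rose by 0.79 ± 0.24 in controls (limma-trend, adjusted p = 0.027), a call lost at 0.37 (adjusted p = 0.365) with the length and GC trend removed, and on leaving out control TAC replicate 1 or 3 or control sham replicate 2 (adjusted p up to 0.111). Meg3 had 6.39 to 18.5 in the 12 libraries, at least 10 in 5 of them, and had changes that were not called, of 0.46 ± 0.47 in controls (limma-trend, adjusted p = 0.52) and −0.39 ± 0.47 in knockouts (adjusted p = 0.91). Its groups overlapped in each comparison, and a difference of this size was not detectable at that depth.

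Of the 8 RNAs, 3 contain microRNA genes on their own strand, and those of H19 and Dnm3os are shown because the short RNAs carry part of the known function of these hosts. They are RefSeq mature sequences (GRCm38.p6), 5′ to 3′, with the seed (bases 2 to 8), which pairs with targets, in capitals.
miR-675-5p in H19, chr7:142577112-142577133: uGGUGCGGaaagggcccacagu
miR-675-3p in H19, chr7:142577078-142577099: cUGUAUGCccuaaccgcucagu
miR-199a-5p in Dnm3os, chr1:162217844-162217866: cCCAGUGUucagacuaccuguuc
miR-199a-3p in Dnm3os, chr1:162217883-162217904: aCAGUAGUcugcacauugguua
miR-214-5p in Dnm3os, chr1:162223397-162223418: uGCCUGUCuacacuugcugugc
miR-214-3p in Dnm3os, chr1:162223438-162223459: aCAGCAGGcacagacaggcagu
No 2 of these 6 share a seed. Poly(A)-enriched libraries do not measure mature microRNAs, so the values of H19 and Dnm3os are those of the host RNA. Meg3 holds 3 further mature microRNAs, of the genes Mir770 and Mir1906-1.

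Gas5 (ENSMUSG00000053332.13, at chr1:161034422-161038539) had the smallest spread of the 7 tested RNAs, with a span of 1.60-fold over the 12 libraries. It was at 406, 503 and 649 in control sham, 444, 552 and 541 in control TAC, 517, 452 and 481 in knockout sham, and 547, 562 and 591 in knockout TAC. All knockout TAC libraries were above all knockout sham libraries, as was so for 8.31% of all tested genes, and the change of 0.23 ± 0.16 was not called (limma-trend, adjusted p = 0.82). In controls the change was 0.00 ± 0.16 (adjusted p = 0.998). Gas5 overlaps Zbtb37 on the opposite strand (0.45 ± 0.21 after TAC in controls, limma-trend adjusted p = 0.13). Rc3h1, the next tested gene on one side, which encodes the RNA-decay protein roquin-1, rose by 0.76 ± 0.15 in controls (limma-trend, adjusted p = 0.0028), a call lost at 0.14 (adjusted p = 0.53) with the length and GC trend removed.

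Miat (ENSMUSG00000097767.8, at chr5:112213228-112229395) was not tested, since no library reached a value of 10. It had 4 reads in control sham, 4 in control TAC, 6 in knockout sham and 3 in knockout TAC, 17 reads in 9 of 12 libraries. These are 0.0863 to 0.158 CPM, and no difference was detectable at this depth. Cryba4, the nearest tested gene on one side of Miat, which encodes a beta crystallin, fell by 1.59 ± 0.34 after TAC in controls (limma-trend, adjusted p = 0.0045).

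A list of related RNAs held a share of calls near that of all tested genes in either direction, but its calls were all rises. In the list of 37 further long noncoding RNAs of heart and stress, 30 were found in the table and 18 were tested. After TAC in controls 4 of 18 rose and 0 fell by limma-trend. Of all tested genes 21.6% were called, 11.0% as higher and 10.6% as lower. The median change was 0.30 against 0.0075 over all tested genes, and no test compared the list with other genes. Lncpint, a p53-induced long noncoding RNA, was at 25.6, 17.1 and 30.5 in control sham, 121, 114 and 68.1 in control TAC, 25.4, 21.9 and 13.6 in knockout sham, and 16.4, 11.1 and 9.8 in knockout TAC. Its control TAC libraries were above all others, and it rose by 2.00 ± 0.35 (limma-trend, adjusted p = 0.0014). Lncpint was lower in knockouts than in controls after TAC by −2.91 log2 units (limma-trend, adjusted p = 0.00036), and the difference of its TAC effects was −2.65 ± 0.49 (adjusted p = 0.028). That last call did not hold on leaving out replicate 1 or 2 of control TAC or of knockout sham, or replicate 2 of control sham or of knockout TAC (adjusted p up to 0.121). Carmn, the host of miR-143 and miR-145, rose by 1.29 ± 0.39 in controls (limma-trend, adjusted p = 0.028), a call lost without any of control sham replicates 1 and 2 or control TAC replicates 2 and 3 (adjusted p up to 0.094). Mir22hg rose by 0.63 ± 0.18 (adjusted p = 0.021), a call lost on leaving out control TAC replicate 2 or 3 or control sham replicate 2 (adjusted p up to 0.094), and 1700020I14Rik by 0.65 ± 0.14 (adjusted p = 0.0045). With the length and GC trend removed both calls were lost, 1700020I14Rik at 0.10 (adjusted p = 0.557) and Mir22hg at 0.62 (adjusted p = 0.0521). In that fit 2 of the 18 were called and the median was 0.11. In knockouts limma-trend, edgeR and DESeq2 called 0 of the 18, with 1 at an unadjusted limma-trend p under 0.05, and voom called 1.

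Hosts of small nucleolar RNAs, the family of Gas5, were not called after TAC in controls: of 20 listed, 17 were found and 14 tested, with 0 called by limma-trend, a median of −0.03, and 1 called lower by edgeR and DESeq2. Snhg8 had the smallest p (−0.73 ± 0.26, limma-trend adjusted p = 0.054), followed by Snhg20 (−0.55 ± 0.25), Snhg14 (0.66 ± 0.39) and Snhg15 (0.62 ± 0.40). Of 34 imprinted genes, the class of Kcnq1ot1, H19 and Meg3, 23 were tested; 4 rose and 4 fell, beside 11.0% of all tested genes called higher and 10.6% lower, with a median of −0.29; no test compared the list with other genes. Grb10, an adaptor that dampens insulin signalling, rose by 0.82 ± 0.14 (limma-trend, adjusted p = 0.0015), Ndn fell by 0.80 ± 0.22 (adjusted p = 0.017), and Igf2r, which clears Igf2, rose by 0.57 ± 0.17 (adjusted p = 0.027). With the length and GC trend removed, 2 imprinted genes were called higher and 4 lower, and the Igf2r call was lost (0.25, adjusted p = 0.33). On leaving out control TAC replicate 1 or 2 or control sham replicate 3 Igf2r was not called either (adjusted p up to 0.101), and Ndn was not called without replicate 3 of either control group (adjusted p up to 0.071).

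For genes of the proteins in the bodies where Malat1 and Neat1 reside, the calls are given beside the 21.6% of all tested genes called, a share that neither list exceeded. Of 25 tested proteins of nuclear speckles and splicing, 3 rose and 1 fell after TAC in controls, with a median of 0.17. Son, a core protein of speckles, rose by 0.59 ± 0.19 (limma-trend, adjusted p = 0.038), the splicing factor Luc7l2 by 0.66 ± 0.20 (adjusted p = 0.028) and the kinase Prpf4b by 0.50 ± 0.17 (adjusted p = 0.043), and the helicase Ddx39b fell by 0.49 ± 0.14 (adjusted p = 0.024). With the length and GC trend removed, 0 of the 25 were called by limma-trend and Prpf4b stood at −0.0072. Each of these 4 calls was lost without control TAC replicate 1 and without control TAC replicate 2, and for Son, Luc7l2 and Prpf4b also without control TAC replicate 3 and control sham replicate 2; the Ddx39b call was lost without control sham replicate 3. Without any 1 knockout sham library the Son and Prpf4b calls were lost too, as was Son without control sham replicate 1 (adjusted p up to 0.158) and Prpf4b without knockout TAC replicate 1 (adjusted p up to 0.153). Of 30 tested paraspeckle proteins, 3 rose and 1 fell, with a median of 0.13. Hnrnpr rose by 0.54 ± 0.12 (limma-trend, adjusted p = 0.0059), Rbm4b by 0.78 ± 0.22 (adjusted p = 0.020) and Fam98a by 0.49 ± 0.16 (adjusted p = 0.036), and Dazap1 fell by 0.46 ± 0.13 (adjusted p = 0.022). With that trend removed 1 was called higher and 1 lower, the median was −0.04, and Hnrnpr stood at −0.13 (adjusted p = 0.55). On leaving out replicate 2 of control sham or of control TAC the Rbm4b call was lost, the Dazap1 call without control TAC replicate 1 or 3 or control sham replicate 3, and the Fam98a call without control TAC replicate 1 or 2, knockout sham replicate 2 or 3, or control sham replicate 3 (adjusted p up to 0.135). In knockouts, limma-trend called 0 genes of any of these 4 lists after TAC, with 0 to 2 per list at an unadjusted p under 0.05; edgeR and DESeq2 also called 0, and voom called 1 imprinted gene and 1 speckle gene.

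**Figure D4:**
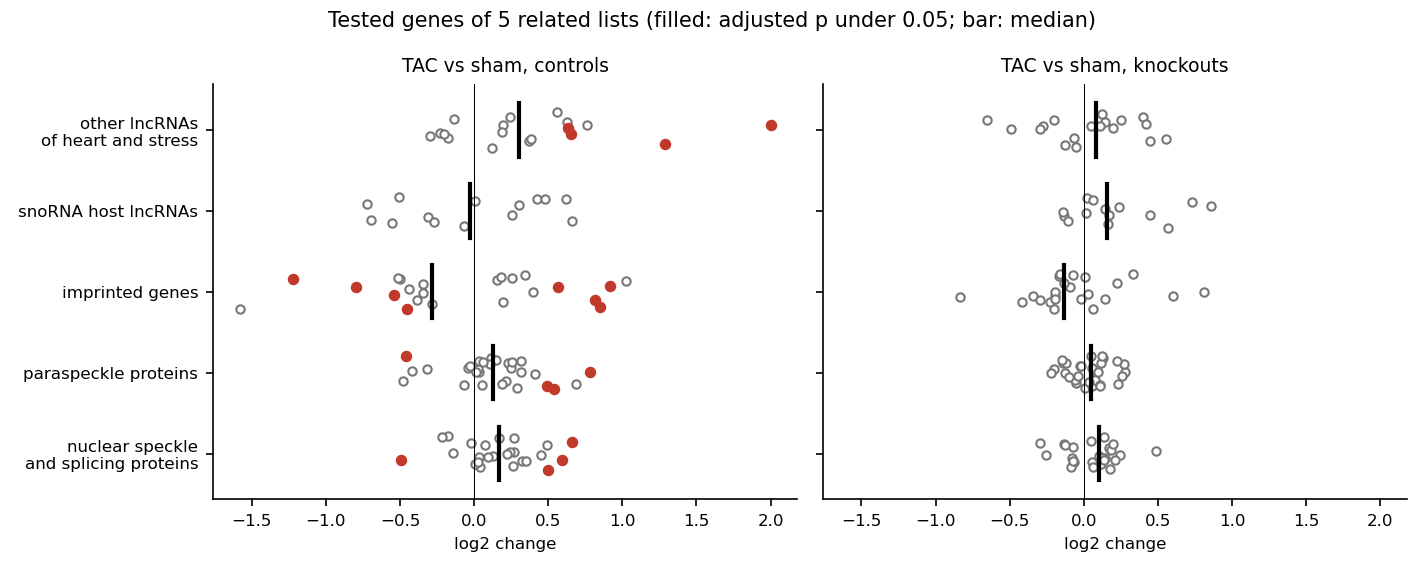
Log2 change after TAC (x axis) of the tested genes of 5 lists (rows) in controls (left) and knockouts (right); each point is a gene, filled where the limma-trend adjusted p was under 0.05, and bars are list medians. In controls 4 of 18 other long noncoding RNAs are filled, all to the right, Lncpint farthest at 2.00, and no point is filled in knockouts.

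The wider classes of long noncoding RNA held calls in both directions. Over all tested genes the shares after TAC in controls were 11.0% higher and 10.6% lower. Of 779 tested genes of the classes lincRNA, antisense RNA and processed transcript (without the 8), 65 (8.34%) were called higher and 34 (4.36%) lower after TAC in controls, with a median of 0.11. Of 165 tested genes of the annotation class for transcripts with no established structure (TEC), 27 (16.4%) were called higher and 2 (1.21%) lower, with a median of 0.56. Between genotypes after TAC 1 (0.606%) was higher and 25 (15.2%) lower in knockouts, with a median of −0.53. Over all tested genes the shares in that comparison were 4.10% higher and 4.13% lower. The part of transcript length and GC content in the calls of these classes was not tested.

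Markers of other cell types moved in the same comparison and are given beside the rise of Malat1 and Kcnq1ot1; their part in it was not tested. Of all tested genes, 11.0% were called higher and 10.6% lower in that comparison. After TAC in controls 5 of 9 tested mesothelial markers were lower and 0 higher by limma-trend, with a summed value of 225 to 584 in control sham, 68.1 to 197 in control TAC and 210 to 458 in the knockout libraries. Of 10 fibroblast markers 3 were higher and 1 lower, with sums of 30540 to 38134 in control sham and 32040 to 33445 in control TAC. Of 10 cardiomyocyte markers 2 were higher and 5 lower, of 10 endothelial markers 0 higher and 2 lower, and of 10 smooth muscle and pericyte markers 0 higher and 2 lower. Of 10 macrophage markers 0 were called by limma-trend, edgeR, DESeq2 and voom, with 0 at an unadjusted limma-trend p under 0.05. Between genotypes after TAC, 5 cardiomyocyte markers were higher and 1 lower in knockouts, 5 fibroblast markers were lower, and 2 mesothelial markers were higher, beside 4.10% of all tested genes higher and 4.13% lower. Several of these calls were lost on leaving out 1 library. Of the calls after TAC in controls, Kcnj8 (a smooth muscle and pericyte marker) was lost only without control TAC replicate 2. Eng (an endothelial marker) was lost without control TAC replicate 2 or 3. Fabp4 (an endothelial marker) was lost without control TAC replicate 1 or 2 or control sham replicate 2 or 3. Acta2 (a smooth muscle and pericyte marker) was lost without control TAC replicate 1 or 2 or control sham replicate 3. With the length and GC trend removed Eng, Acta2 and Kcnj8 were not called. In that fit the fibroblast markers Col3a1 (0.44, limma-trend adjusted p = 0.0725) and Gsn (−0.11, adjusted p = 0.60) were not called either, while Col1a2 and Mfap5 kept their calls. Nor was the cardiomyocyte marker Myl2 called (−0.35, adjusted p = 0.056). Between genotypes after TAC the Col3a1 call was lost there too (−0.43, adjusted p = 0.13). Leaving out 1 library lost the Gsn call in 8 fits. Without control TAC replicate 1 the cardiomyocyte markers lower in controls were 2 in place of 5, and without control sham replicate 2 they were 3. Between genotypes after TAC the mesothelial markers called were 0 without control TAC replicate 2 or knockout TAC replicate 1 or 2, and 6 without knockout TAC replicate 3. The cardiomyocyte markers higher in knockouts were 1 without knockout TAC replicate 1 or 2, and the fibroblast markers lower in knockouts were 3 to 5 over the fits that left out a library. No marker was at 0 in all libraries of a group.

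**Figure D5:**
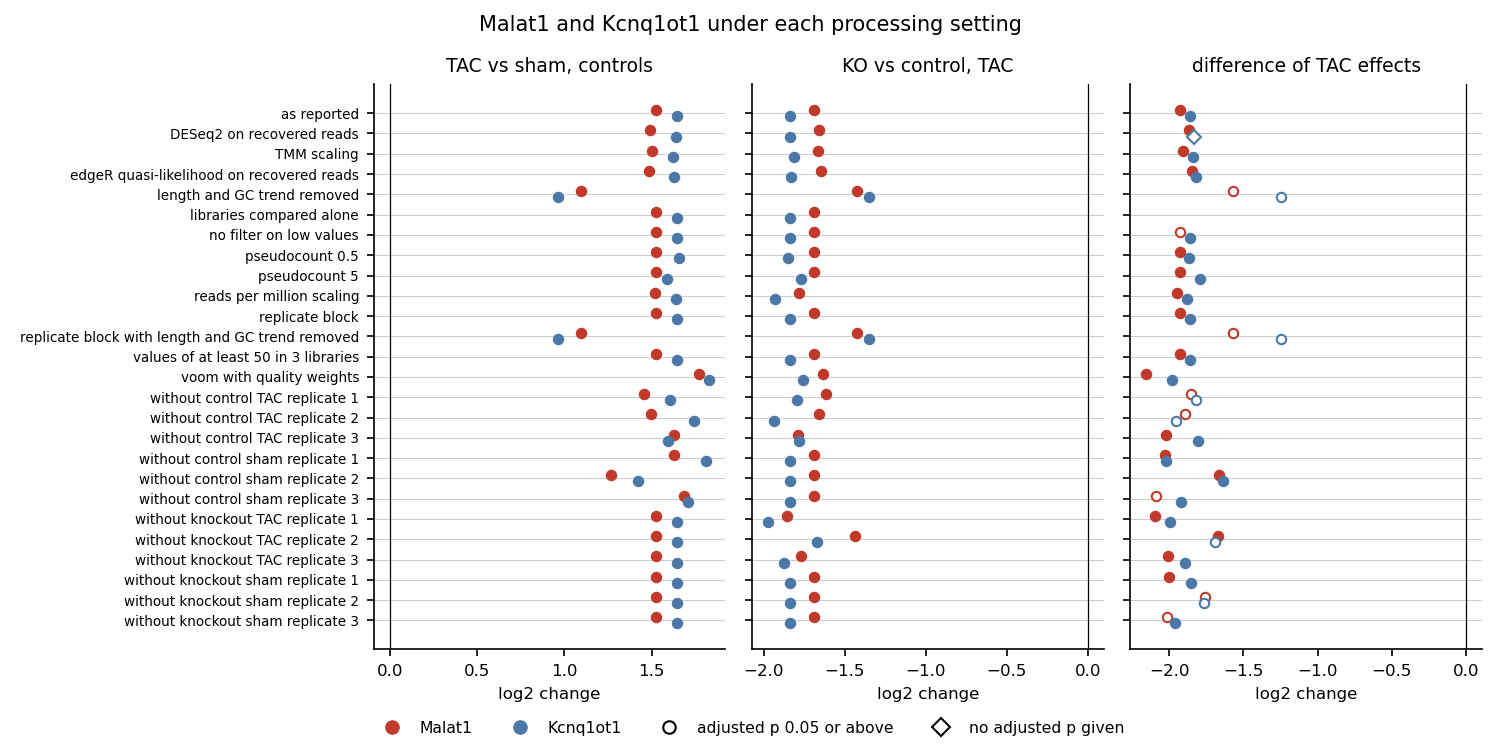
Log2 change (x axis) of Malat1 and Kcnq1ot1 in 3 comparisons (panels) under each processing setting and with each library left out (rows); open symbols had an adjusted p of 0.05 or above and the diamond no adjusted p. Both RNAs are filled in every row of the first 2 panels, from 0.96 to 1.83 and from −1.97 to −1.35, and several rows of the difference of TAC effects are open.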

How the data were processed

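The table covers poly(A)-selected RNA from 12 left ventricle libraries. Per the submitters' processing notes, the authors used STAR, SAMtools and featureCounts on GRCm38.p6; neither versions nor annotation, strand mode or normalisation method are given in those notes. The deposited values are a signal, reads divided by a size factor per library: 100% of values were whole reads (within 0.01) once the factor was undone, giving 10323605 to 13238934 reads. Of 56350 gene IDs, 55480 matched GENCODE M21.

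The 13916 genes that reached 10 in 3 or more libraries were fitted on log2(value + 1) with limma-trend, robust (limma 3.58.1, R 4.3.3), as 4 group means over all 12 libraries, with Benjamini-Hochberg adjustment in each of 5 comparisons. Alternatives were edgeR 4.0.16 and DESeq2 1.42.0 on the recovered reads, voom with quality weights, other pseudocounts (0.5 and 5), filters and scalings, a replicate block, removal of a loess trend over transcript length and GC content (span 0.5), and each library left out. The fits were tested on simulated data. The named genes were the 8 RNAs, their nearest or overlapping tested genes, the 3 genes most like each by Pearson's r, and up to 4 genes of the smallest p in each list; some items under this rule are not reported here. The lists were snoRNA hosts, imprinted genes, paraspeckle proteins, nuclear speckle and splicing proteins, other long noncoding RNAs, and markers of cardiomyocytes, fibroblasts, endothelial cells, macrophages, smooth muscle cells and pericytes, and mesothelial cells. Members and lists were chosen with earlier results of these data known.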

Additional observations from a re-analysis of the deposited data

Results flagged for a closer look

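The effect of TAC differed between genotypes, by the test of the difference itself (limma-trend), for 3 of the named long noncoding RNAs. The difference, knockout minus control, was −1.92 ± 0.34 for Malat1 (adjusted p = 0.026), −1.86 ± 0.32 for Kcnq1ot1 (adjusted p = 0.021) and −2.65 ± 0.49 for Lncpint (adjusted p = 0.028). With the length and GC trend removed, limma-trend no longer called Malat1 (adjusted p = 0.119) or Kcnq1ot1 (adjusted p = 0.125). Without the filter on low values it did not call Malat1 (adjusted p = 0.0838). The values per library, and the libraries without which each call was lost, stand beside the results above.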

How the results depend on the processing

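Of the 7 tested RNAs, 2 were called after TAC in controls and 2 between genotypes after TAC under every setting run; with 1 library left out these counts were 2 to 3 (H19 was added without control TAC replicate 1) and 2. In knockouts and after sham surgery 0 were called throughout by limma-trend, edgeR, DESeq2 and voom. For the difference of TAC effects 2 were called, but 1 with no filter on low values, 0 with the length and GC trend removed (with or without the replicate block), 1 with DESeq2, which gave no adjusted p for Kcnq1ot1, and 0 to 2 with 1 library left out.

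Over all genes, the calls after TAC in controls (3006) were 1433 where each pair of groups was fitted on its own, 1372 when that trend was taken out, and 1533 to 3656 with 1 library left out. Calls after TAC in knockouts (1) were 2 with no filter, 32 alone, 23 with DESeq2, 843 with voom, and 0 to 7 with 1 library left out. Between genotypes after sham (0) there was 1 with DESeq2 and 0 to 1 with 1 library left out. Between genotypes after TAC (1145) there were 487 with the trend removed, 3812 with voom, and 202 to 2144 with 1 library left out. For the difference of TAC effects (43) there were 65 with a pseudocount of 5, 124 with no filter, 95 with CPM scaling, 22 with the trend removed, 480 with DESeq2, 1573 with voom, and 8 to 758 with 1 library left out. The cause of these shifts was not tested. Hnrnpr (−0.13) and Prpf4b (−0.0072) changed sign after TAC in controls with the trend removed, with or without the block, and neither was called there.

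Deviations of same-numbered libraries correlated at r from −0.067 to 0.158 within the comparisons made, and from −0.072 to 0.249 over every same-numbered pair; not every pair was over 0.1, so the numbers were not taken to pair the samples. With the replicate block the calls were 3151 after TAC in controls, 3 in knockouts, 1198 between genotypes after TAC and 47 for the difference of effects; with the block and the trend removed they were 1569, 3, 547 and 26. Depth limits Meg3 and Miat most.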

Other observations

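The genes most like the 3 remaining tested RNAs over the 12 libraries, which every gene shares, are given as values. For Gas5 they were Chrnb1, a subunit of the muscle acetylcholine receptor (r = 0.847), Zfp513 (r = 0.845) and the formin gene Fmnl3 (r = 0.826). For Dnm3os they were the golgin gene Gcc1 (r = 0.938), the kinase gene Ripk1 (r = 0.908) and Nono, a core paraspeckle protein gene (r = 0.907). For Meg3 they were Pdlim3 (r = 0.742), Pggt1b (r = 0.737) and Cers2 (r = 0.736), with values of Meg3 near the limit of detection.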
